A study of Homo sapiens with 4 samples.

Results

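The respiratory chain of the inner mitochondrial membrane moves electrons from NADH and succinate to oxygen and uses the released energy to make ATP. Complex I takes electrons from NADH and complex II takes them from succinate, and both pass them by coenzyme Q to complex III, from which cytochrome c carries them to complex IV. Complex V, the ATP synthase, lets protons flow back through its membrane ring. Most of the subunits are encoded in the nucleus, and a few are encoded by the mitochondrial genome, so that both genomes must supply parts of complexes I, III, IV and V. In erythroid cells the chain is active in precursors, which also make haem in their mitochondria, and it is lost when the mature red cell clears its mitochondria.

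The genes described here were the nuclear genes for these subunits. They were chosen by symbol alone, as the names that start with NDUFA, NDUFB, NDUFC, NDUFS or NDUFV, the SDH and UQCR names, CYC1, the COX names of subunit families and the ATP5 names. Of 182 matching names, 95 pseudogenes were dropped, which left 87 of the 61498 genes in the files. There were 37 members in complex I, 4 in complex II, 10 in complex III, 17 in complex IV and 19 in complex V. NDUFA4 was counted under complex I by its name, although its protein is known as a subunit of complex IV. All 87 members were annotated as protein coding.

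Poly(A) RNA was sequenced from K562, a human erythroleukaemia cell line grown from a single patient's leukaemia. The 2 untreated libraries came from K562 cells in ordinary medium, and the 2 hemin libraries came from K562 cells kept with 50 µM hemin for 108 h to start erythroid differentiation. No genotype change was made in either group. The labels do not say whether the libraries of a group came from separate cultures, so p-values measure only the spread between these libraries, which may be technical. The deposited counts per gene summed to 7455447 to 8241534 per library, with 12.8% to 13.6% of them on the mitochondrial genome. The erythroid regulators GATA1 and TAL1 were detected in all libraries, at 886 to 931 and 618 to 650 counts, and embryonic globin HBE1 rose after hemin by 0.41 on the log2 scale (SE 0.04, edgeR adjusted p = 0.000445). Of the markers of other cells, CD3E was at 0 counts, ALB was at 0 or 1, COL1A1 was at 7 to 13, and the epithelial marker EPCAM was at 288 to 319 counts in all 4 libraries (log2 fold change 0.08, adjusted p = 0.65). The bulk libraries cannot tell fewer cells of a type from less RNA per cell.

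Levels are given as TPM, a gene's share of all transcripts after scaling by length, with the same total in every library, and only TPM was used to compare genes with each other. Fold changes are log2 of hemin over untreated from edgeR, fitted to the counts of all genes, and a gene was called when its adjusted p was under 0.05. CPM is a gene's count as a share of its library after edgeR's scaling between libraries, without scaling by length.

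The members were abundant and short. The 80 members with enough counts for the test had a median level of 145 TPM, against 15 TPM over the 14458 genes tested, and a median transcript length of 646 bases, against 2028 bases. Their levels ran from 21.8 TPM for NDUFB6, an accessory subunit of complex I, to 1190 TPM for UQCRH, the hinge protein of complex III. The 87 members together took 0.807% to 0.873% of all counts.

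**Figure D1:**
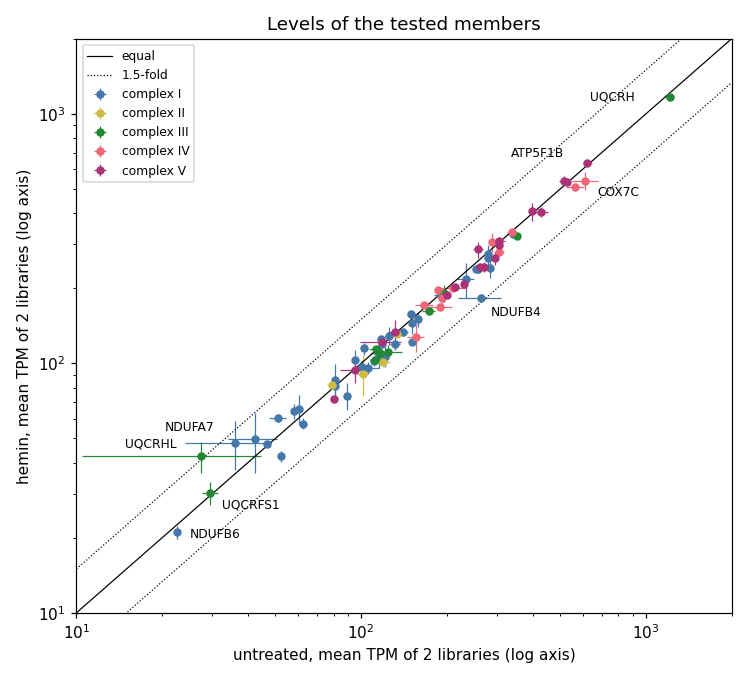
Mean TPM of the 80 tested members in the 2 untreated libraries (x axis) and the 2 hemin libraries (y axis), both on log axes, with bars of 1 SD over 2 libraries and colours for the complexes. The solid line marks equal levels and the dotted lines a 1.5-fold difference. The members lie close to the line of equal levels from 21.8 to 1190 TPM. The points for UQCRHL and NDUFA7 have the widest relative bars among the named genes.

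Few members changed after hemin. Of the 80 tested members, 4 were called (5%), while 14.1% of all tested genes were called. The share was 7% of all genes upwards and 7.14% downwards. In complex I, 3 genes fell, NDUFB4, NDUFS7 and NDUFA10, and 1 ATP synthase gene rose, ATP5MC3. When libraries were scaled by their size alone, 729 of all genes were called higher and 1358 lower, with 0 and 5 of the members. The median log2 fold change was -0.033 over the members and -0.005 over all genes tested, and 34 members had a positive and 46 a negative value. The quartiles were -0.08 and 0.07 for the members and -0.20 and 0.15 for all genes. At an unadjusted p under 0.05, 11 members passed, 4 upwards and 7 downwards. The CPM of the 2 groups did not overlap for 11 members with higher values, against 28.1% of all genes, and 21 with lower values, against 29.3%. Together this was 40% of the members against 57.3% of all genes.

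The intervals of most members were narrow. The 95% interval of the log2 fold change lay inside -0.5 to 0.5 for 76 of the 80 members (95%), and this held for 54.4% of all genes tested. The median standard error was 0.068 for the members and 0.111 for all genes. Between single libraries, the median absolute log2 difference of the members was 0.080 for the untreated pair, 0.076 for the hemin pair and 0.075 to 0.095 for the pairs of a hemin with an untreated library. For all genes these medians were 0.115, 0.111 and 0.189 to 0.193. The second untreated library had higher member values than the first, with a median log2 difference of 0.073, and the second hemin library had lower values than the first, with a median of -0.040. Without untreated replicate 2 the median of the members was 0.010. The number of members called lower was 1 when untreated replicate 1 or untreated replicate 2 was left out, and the number called higher was 0 without untreated replicate 1 or hemin replicate 1.

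**Figure D2:**
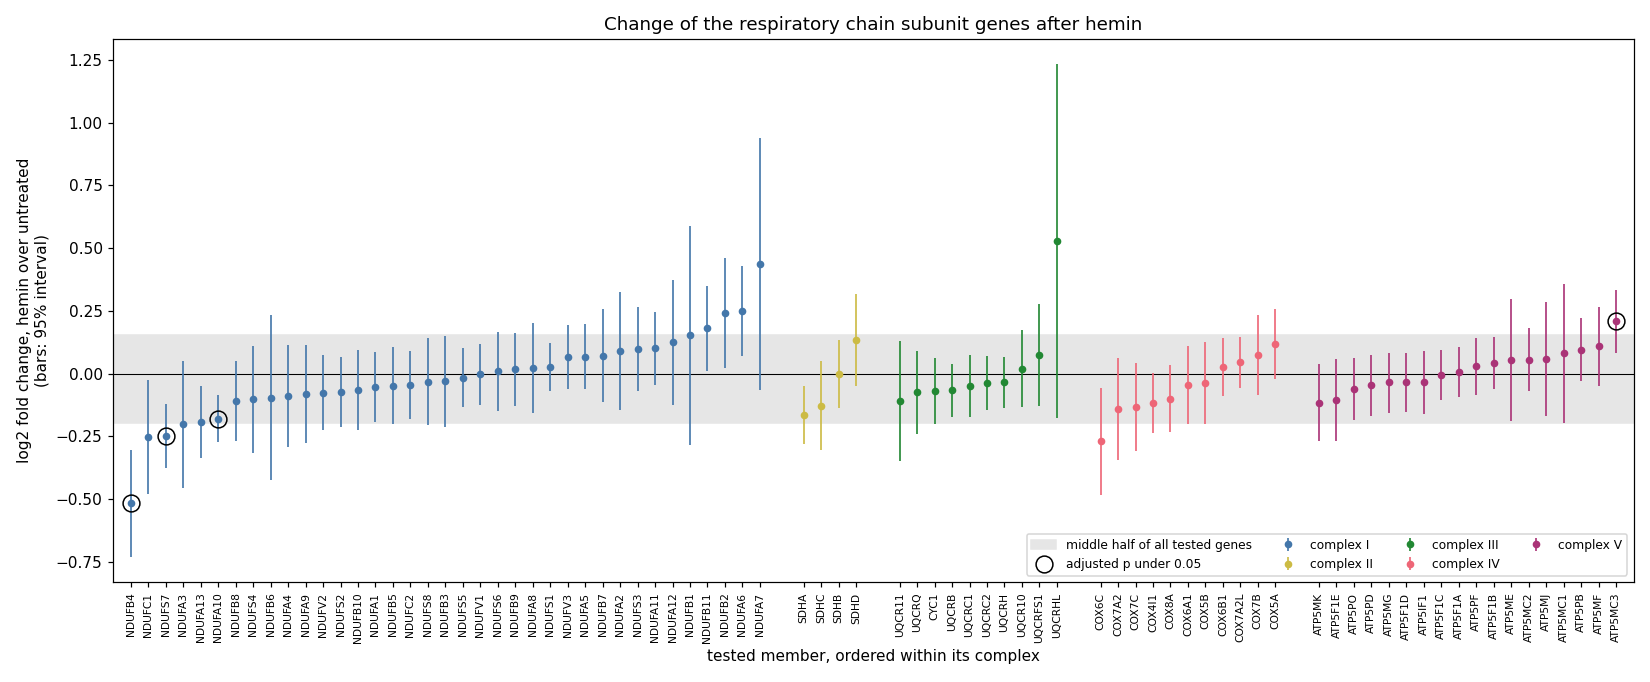
Log2 fold change of hemin over untreated for each of the 80 tested members, ordered within complexes I to V, with 95% intervals from edgeR. The grey band spans the quartiles of all tested genes (-0.20 to 0.15) and black rings mark the 4 called genes, of which 3 lie below 0 in complex I and 1 lies above 0 in complex V.

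NDUFB4, an accessory subunit in the membrane arm of complex I, had the largest fall. Its level was 233 and 296 TPM in the untreated libraries and 178 and 188 TPM in the hemin libraries. Both hemin libraries were below both untreated libraries, although the untreated libraries differed from each other more than the hemin libraries did. The log2 fold change was -0.52 (SE 0.10, edgeR adjusted p = 0.00806), which is 0.699 of the untreated level. The gene lies at chr3:120596328-120602507 on the plus strand of GRCh38, and its exons overlap no other annotated gene.

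NDUFS7 encodes a core subunit that holds the last iron-sulfur cluster before coenzyme Q. It had 149 and 154 TPM in the untreated libraries and 121 and 122 TPM in the hemin libraries. The groups did not overlap, and the log2 fold change was -0.25 (SE 0.06, edgeR adjusted p = 0.0195). NDUFA10, an accessory subunit of the membrane arm, had 1784 and 1677 counts in the untreated libraries and 1472 and 1600 in the hemin libraries. On the CPM scale these were 226 and 224 against 199 and 198, with a log2 fold change of -0.18 (SE 0.04, edgeR adjusted p = 0.0208). On the TPM scale the NDUFA10 groups overlapped, at 160 and 157 against 157 and 143, and RSEM's effective length of the gene was lower by 0.13 on the log2 scale in the hemin libraries. The calls of NDUFS7 and NDUFA10 were lost when any 1 library was left out, with adjusted p of 0.0556 to 0.0781 and 0.0615 to 0.0841, and with DESeq2 (adjusted p of 0.117 and 0.0778) or limma. The exons of NDUFS7 also overlap 2 annotated genes on the opposite strand, and the RSEM options given in the study's methods name no strand setting, so reads of the overlapping genes may not be told apart.

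ATP5MC3 is one of 3 genes that encode the same c subunit, which forms the rotating ring of the ATP synthase. It had 251 and 265 TPM untreated and 301 and 271 TPM after hemin, and the groups did not overlap. The log2 fold change was 0.21 (SE 0.06, edgeR adjusted p = 0.0365). The call was lost without hemin replicate 1 (adjusted p = 0.135) and without untreated replicate 1 (adjusted p = 0.188). The other c subunit genes gave 0.08 (SE 0.12, adjusted p = 0.716) for ATP5MC1 and 0.06 (SE 0.06, adjusted p = 0.561) for ATP5MC2. The summed level of the 3 genes was 635 and 684 TPM in the untreated and 692 and 690 TPM in the hemin libraries.

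The promoters of the members were read because the chain's nuclear genes are known targets of a few shared factors. NRF1, the ETS factor GABP and YY1 are the best known of these. Promoter sequences from RefSeq, on GRCh38.p14, were available for 70 of the 87 members, and each window ran from 250 bases before to 50 bases after a start site. The NRF1 letters, GCGC, then any base, then TGCGC, were found in 24.3% of the members, 14.0% of the expressed genes and 9.7% of all protein-coding genes. The ETS letters CCGGAAG were found in 30%, 23.5% and 16.5%, and the YY1 letters AAGATGGC in 17.1%, 6.7% and 4.7%, in the same order. The NF-Y letters CCAAT, searched as a contrast, were in 37.1% of the members and 43.5% of the expressed genes. Both strands were searched, and where a gene had several windows a match in any of them counted. Of the members, 58.6% held at least 1 of the first 3 motifs, against 38.1% of the expressed genes. These matches are a description of letters and not of bound sites.

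Among the complexes, NRF1 letters were found in 4 of 7 complex III promoters and in 1 of 14 complex IV promoters, and YY1 letters in 7 of 32 complex I promoters and in 0 of 14 complex IV promoters. The complex IV promoters, and so the shares of the members, include COX6A2, COX6B2, COX7B2 and COX8C, whose counts were too low for the test. The promoters of 4 genes are shown, with motif matches in capitals, 5′ to 3′ along the gene and ending 30 bases after the start site. The first is that of the member with the largest fall, NDUFB4 (chr3:120596086-120596365, plus strand), which holds 3 NRF1 matches. The NDUFS7 promoter (chr19:1383657-1383936, plus strand) holds a YY1 match just after the start. SDHB (chr1:17054003-17054282, minus strand) is shown as a member with an ETS and a YY1 match whose level did not pass the test. TFAM (chr10:58385160-58385439, plus strand), a regulator described with the other pathway genes, holds 1 NRF1 match.
NDUFB4: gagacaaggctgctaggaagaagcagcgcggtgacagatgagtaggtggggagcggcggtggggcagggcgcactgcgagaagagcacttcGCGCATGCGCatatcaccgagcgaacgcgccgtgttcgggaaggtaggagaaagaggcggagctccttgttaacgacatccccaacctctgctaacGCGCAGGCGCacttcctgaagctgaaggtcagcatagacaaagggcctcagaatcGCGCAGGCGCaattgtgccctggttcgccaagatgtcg
NDUFS7: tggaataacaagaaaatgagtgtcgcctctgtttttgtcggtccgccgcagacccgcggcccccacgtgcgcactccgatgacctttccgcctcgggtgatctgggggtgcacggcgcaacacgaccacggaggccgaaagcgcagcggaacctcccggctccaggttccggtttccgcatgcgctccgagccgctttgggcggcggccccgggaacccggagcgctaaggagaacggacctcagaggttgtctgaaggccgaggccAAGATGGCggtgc
SDHB: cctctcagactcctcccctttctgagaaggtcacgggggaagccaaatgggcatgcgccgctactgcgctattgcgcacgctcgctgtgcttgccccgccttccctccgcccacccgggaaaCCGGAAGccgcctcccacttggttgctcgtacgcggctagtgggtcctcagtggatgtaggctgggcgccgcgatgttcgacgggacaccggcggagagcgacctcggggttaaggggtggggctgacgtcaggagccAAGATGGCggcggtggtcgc
TFAM: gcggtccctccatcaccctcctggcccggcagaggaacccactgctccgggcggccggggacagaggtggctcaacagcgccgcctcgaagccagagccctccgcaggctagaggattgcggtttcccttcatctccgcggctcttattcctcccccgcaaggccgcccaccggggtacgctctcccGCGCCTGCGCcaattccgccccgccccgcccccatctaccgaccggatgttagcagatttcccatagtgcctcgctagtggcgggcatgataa
The promoters of NDUFA10 and of the regulator TFB2M, which are not shown, held no match to the NRF1, ETS or YY1 letters. ATP5MC3 had no entry.

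In complex I, 3 of 37 tested members were called, all lower, and the median log2 fold change was -0.030. The summed TPM of the complex was 4974 and 5152 in the untreated and 4970 and 4637 in the hemin libraries. The first libraries of the conditions had nearly the same sum, and the second libraries were the highest and the lowest of the 4. NDUFV1, which binds NADH and the flavin cofactor, gave -0.002 (SE 0.054), and NDUFS1, the largest subunit of the electron-carrying arm, gave 0.03 (SE 0.04). The 7 core subunits had a median of -0.032, with NDUFS7 the called one. The most abundant complex I member was NDUFS5, an accessory subunit, with 342 ± 16.2 TPM untreated and 330.0 ± 9.87 TPM after hemin (SD, n = 2). Among the members that missed the threshold, NDUFA6 gave 0.25 (SE 0.08, adjusted p = 0.0653) and NDUFC1 gave -0.25 (SE 0.10, adjusted p = 0.129). NDUFA13 gave -0.19 (SE 0.06, adjusted p = 0.0737), and -0.27 without hemin replicate 1. It was called lower with the length correction (adjusted p = 0.0348), library size only (0.0415), posterior mean counts (0.0419) and the strict count filter (0.0478). Upwards, NDUFB2 gave 0.24 (SE 0.10, adjusted p = 0.133) and NDUFB11 gave 0.18 (SE 0.075, adjusted p = 0.143). With NDUFA4 moved to complex IV, complex I still held the 3 called genes and its median was -0.023.

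Complex II is the only complex of the chain with no subunit from the mitochondrial genome. None of its 4 genes was called by edgeR at the settings used for the report, by DESeq2 or by limma, and 1 passed an unadjusted p under 0.05 in edgeR. SDHA, the flavoprotein that oxidises succinate, had 124 and 115 TPM untreated and 98.2 and 105 TPM after hemin. Its groups did not overlap, with a log2 fold change of -0.17 (SE 0.05, edgeR adjusted p = 0.0631). Its call depended on the settings, since the adjusted p was 0.0333 without hemin replicate 2 and 0.0306 with RSEM's posterior mean counts. SDHB, the iron-sulfur subunit, gave -0.002 (SE 0.061). The membrane anchors gave -0.13 (SE 0.08) for SDHC and 0.13 (SE 0.08) for SDHD, with adjusted p of 0.325 and 0.323. The most abundant of the 4 was SDHB, at 134 ± 5.71 TPM untreated and 131 ± 1.06 TPM after hemin.

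Complex III had 10 tested members and none called by edgeR, DESeq2 or limma, and none passed an unadjusted p under 0.05 in edgeR. UQCRH was the most abundant member, at 1181 and 1247 TPM untreated and 1177 and 1154 TPM after hemin. The hemin values lay just below the untreated ones, with a log2 fold change of -0.04 (SE 0.05, 95% interval -0.14 to 0.07). The catalytic subunits were near 0 as well, with CYC1, the cytochrome c1, at -0.07 (SE 0.06), UQCRFS1, the Rieske iron-sulfur protein, at 0.07 (SE 0.09), and the core protein UQCRC1 at -0.05 (SE 0.06). UQCRHL, a gene that is a near copy of UQCRH, had the largest positive value of all members, 0.53 (SE 0.31, adjusted p = 0.306), from 56, 26, 49 and 70 counts in untreated replicates 1 and 2 and hemin replicates 1 and 2. RSEM's own posterior SD was 30.4% of its count, since its reads can also match UQCRH, and its value is uncertain.

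Complex IV had 11 tested members, and none was called by edgeR at the settings used for the report, by DESeq2 or by limma, with 1 past an unadjusted p under 0.05 in edgeR. That gene was COX6C, a small subunit of the membrane part, with 148 and 164 TPM untreated and 140 and 116 TPM after hemin. Its groups did not overlap, and the log2 fold change was -0.27 (SE 0.10, adjusted p = 0.0888). COX6C was called lower without hemin replicate 1 (adjusted p = 0.0319), with the length correction (0.0456), with posterior mean counts (0.0419) and with no count filter (0.0293). COX7C was the most abundant member, at 568 and 660 TPM untreated and 570 and 508 TPM after hemin, and its groups overlapped. COX4I1, the largest nuclear subunit, gave -0.12 (SE 0.05, adjusted p = 0.186). Across the other named subunits the values ran from -0.14 for COX7A2 to 0.07 for COX7B, with COX6A1, COX6B1, COX7A2L and COX8A between them. COX7A2L, which helps to join complexes III and IV, gave 0.05 (SE 0.05). NDUFA4 gave -0.09 (SE 0.09, adjusted p = 0.572).

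Several complex IV subunits exist in pairs, with one form in most tissues and another in heart, muscle, testis or lung. The tissue forms were at or near 0 here. COX4I2 and COX6A2 had 0 counts in all 4 libraries, which allows up to 3 counts in each, COX6B2 had 3 to 5, COX7A1 and COX7B2 had 0 to 2, and COX8C had 2 counts in 1 hemin library and 0 elsewhere. ATP5MGL of complex V had 1 count in each untreated library and 0 in the hemin libraries. These 7 members were too low to be tested. The common forms COX4I1, COX6A1, COX6B1, COX7A2, COX7B and COX8A were at 169 to 538 TPM on average over the 4 libraries. No change from one form to the other was detectable at this depth, and the interval for COX4I1, the paired form with the highest level, ran from -0.24 to 0.004.

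Complex V had 18 tested members with a median log2 fold change of 0.018, and ATP5MC3 was its single call. ATP5F1A gave 0.006 (SE 0.044) and ATP5F1B, the catalytic subunit and the most abundant member of the complex, gave 0.04 (SE 0.05, 95% interval -0.06 to 0.15). ATP5F1B had 608 and 639 TPM untreated and 627 and 650 TPM after hemin, so its groups overlapped. ATP5IF1, the inhibitor that blocks the enzyme when it would run backwards, gave -0.03 on counts (SE 0.06, adjusted p = 0.746). Its level was 270 ± 15.8 TPM untreated and 244 ± 10.7 TPM after hemin, a log2 ratio of -0.147, and the TPM groups did not overlap. The effective length of ATP5IF1 was higher by 0.08 on the log2 scale in the hemin libraries. The 4 stalk genes had a median of -0.009 and the 5 F1 genes a median of -0.005.

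Summed TPM compares the complexes on a scale per length. The sums of all members were 16153 and 16698 TPM untreated and 16076 and 15466 TPM after hemin, a difference of -3.98% between the means. The difference was -5.14% for complex I, -6.46% for complex II, -4.21% for complex III, -5.99% for complex IV and -1.33% for complex V. On the TPM scale the groups overlapped only for complex V, at 5186 and 5327 TPM untreated and 5234 and 5139 TPM after hemin. With 2 libraries in each group an exact permutation test cannot go below p = 0.333, so none of these differences was tested. After edgeR's scaling the summed CPM of the members was 8227 and 8688 untreated and 8464 and 8243 after hemin, and on that scale the groups overlapped. The summed CPM also overlapped for complexes I, III, IV and V. For complex II it did not, at 365 and 383 untreated and 358 and 355 after hemin. No test of one complex against another was made.

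**Figure D3:**
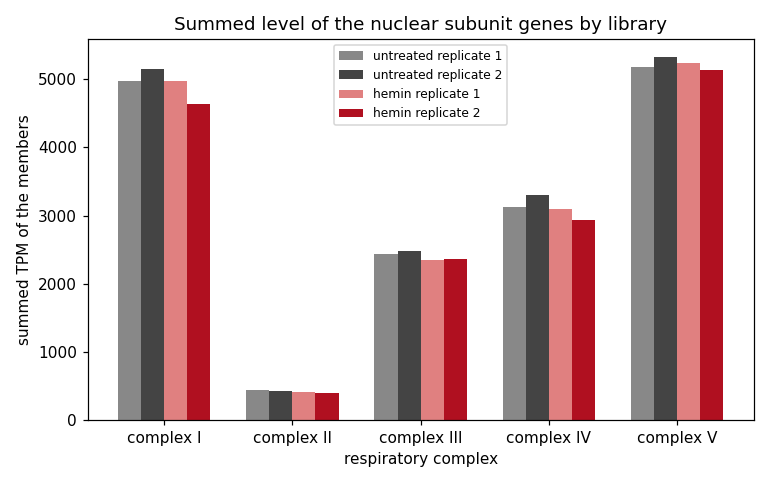
Summed TPM of the members of each complex (bars from 0) in untreated replicates 1 and 2 (grey) and hemin replicates 1 and 2 (red). Complexes I and V have the largest sums, at 4637 to 5327 TPM, complex II the smallest, at 396 to 437 TPM, and the 4 libraries differ little within each complex.

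Some reads of the members can belong to other genes. The files hold 174 pseudogenes named after 48 of the members, and they had 732 to 813 counts per library, beside 62772 to 66517 for the members. Of the 87 members, 27 share exon bases with another gene on their own strand and 31 with a gene on the other strand. Among the tested members NDUFA7, an accessory subunit of complex I, was the least certain, and RSEM's posterior SD was 33.8% of its reads. It shares exons with a read-through gene on its strand and with the ribosomal gene RPS28 on the other strand, and its log2 fold change was 0.44 (SE 0.22, adjusted p = 0.233). With RSEM's posterior mean counts that value was 0.06 (adjusted p = 0.811). It was 0.12 without untreated replicate 1, 0.20 without hemin replicate 1, 0.65 without hemin replicate 2 and 0.82 without untreated replicate 2, and with no count filter the gene was called (adjusted p = 0.0356). NDUFA9 had the next largest posterior SD of the tested members after UQCRHL, 6.95%, and gave -0.08 (SE 0.09).

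The other genes of the pathway were read from fixed lists. These lists were chosen with earlier results of these data known, so the shares called describe them and were not tested. Of 13 regulators that control respiratory genes, 12 were tested, and 6 of them rose after hemin while none fell, which is 50% against 14.1% of all genes. The median log2 fold change of the regulators was 0.26. TFAM, which packs and transcribes mitochondrial DNA, had 63.4 and 59.5 TPM untreated and 75.9 and 76.6 TPM after hemin. Its groups did not overlap, with a log2 fold change of 0.31 (SE 0.06, edgeR adjusted p = 0.00791). TFB2M, the partner factor that opens mitochondrial promoters, had 24.9 and 24.2 TPM untreated and 32.6 and 33.7 TPM after hemin, with a log2 fold change of 0.47 (SE 0.08, adjusted p = 0.00609). The PGC-1 family coactivators PPRC1 and PPARGC1B gave 0.31 (SE 0.06, adjusted p = 0.00898) and 0.33 (SE 0.08, adjusted p = 0.0234).

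YY1 rose by 0.25 (SE 0.06, adjusted p = 0.0273), with 62.9 and 61.2 TPM untreated and 63.0 and 80.5 TPM after hemin, so that the groups barely missed overlapping and the second hemin library stood apart. ESRRA, a nuclear receptor of energy metabolism, rose by 0.27 on counts (SE 0.07, adjusted p = 0.0254), but its TPM groups overlapped, at 49.2 and 54.0 against 52.6 and 52.1, and its effective length was higher by 0.21 on the log2 scale in the hemin libraries. Among the other factors of the NRF1, ETS and YY1 motifs, NRF1 missed the threshold at 0.18 (SE 0.12, adjusted p = 0.374). The GABP genes missed it too, with GABPA at -0.03 (SE 0.08, adjusted p = 0.852) and GABPB1 at -0.045 (SE 0.122, adjusted p = 0.853). GABPB2 gave a larger value, 0.445 (SE 0.165, adjusted p = 0.105). No NF-Y gene was on the lists. PPARGC1A, the coactivator PGC-1α, had 2 counts in 1 untreated library and 0 elsewhere. The number of regulators called fell to 3 without hemin replicate 2, 3 without untreated replicate 1 and 3 without untreated replicate 2, and to 0 with limma on TPM. With DESeq2 the calls of ESRRA (adjusted p = 0.0986) and PPARGC1B (adjusted p = 0.0693) were lost. TFAM and TFB2M kept their calls in every setting except limma.

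**Figure D4:**
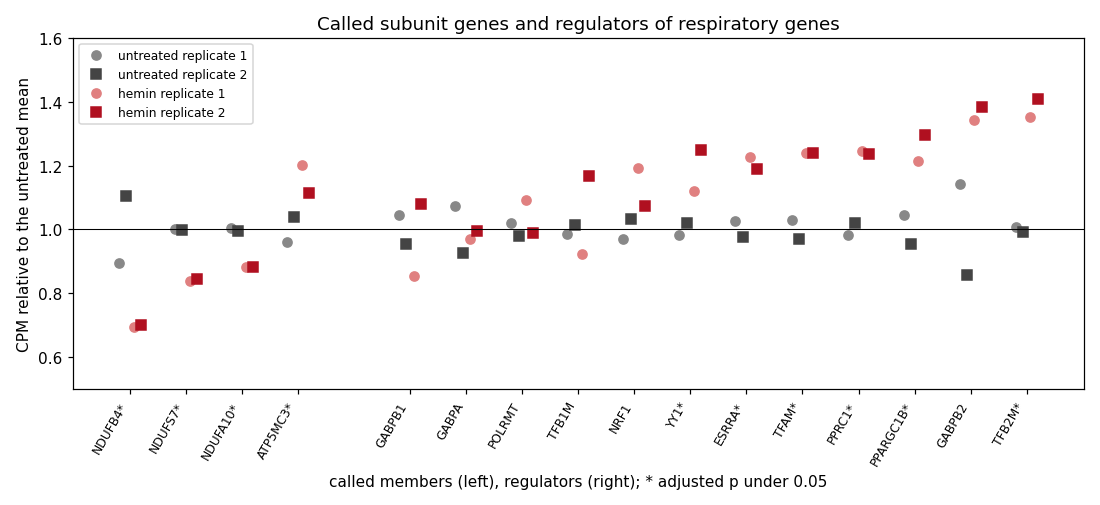
CPM of the 4 called members (left) and the 12 tested regulators (right) in each library, divided by the mean of the untreated libraries, with untreated replicates in grey and hemin replicates in red. Asterisks mark genes with an adjusted p under 0.05. NDUFB4, NDUFS7 and NDUFA10 have both hemin points below both untreated points, and TFAM and TFB2M have both hemin points above.

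Of the 55 assembly factors tested, 3 were called (5.45%, against 14.1% of all genes), with a list median of -0.031. ECSIT, which acts in complex I assembly, rose by 0.45 (SE 0.09, adjusted p = 0.0114), and the call was lost without untreated replicate 1 (adjusted p = 0.0714). COA7, an assembly factor of complex IV, rose by 0.48 (SE 0.06, adjusted p = 0.00128). TMEM70, which is needed to build the c ring of the ATP synthase, fell from 66.1 and 61.7 TPM to 36.4 and 37.4 TPM, and its groups were far apart. Its log2 fold change on counts was -0.53 (SE 0.09, adjusted p = 0.00652), smaller than the log2 ratio of -0.79 on TPM. The effective length of TMEM70 was higher by 0.22 on the log2 scale in the hemin libraries. Of the 13 genes of coenzyme Q synthesis, 1 was called (7.69%, against the same 14.1%), COQ8A, which fell by 0.29 on the log2 scale (SE 0.07, adjusted p = 0.0259), and the call was lost without hemin replicate 2 (adjusted p = 0.125), untreated replicate 1 (adjusted p = 0.0636) or untreated replicate 2 (adjusted p = 0.123). The 5 listed nuclear genes that the name rule missed were all tested. None of these 5 was called by edgeR, DESeq2 or limma, with none past an unadjusted p under 0.05 in edgeR. They include CYCS, the cytochrome c that links complexes III and IV, at 0.005 (SE 0.040) and 378 TPM on average. Of the 13 subunits encoded by the mitochondrial genome, 2 were called (15.4%, close to the 14.1% of all genes). MT-CYB of complex III rose by 0.35 (SE 0.05, adjusted p = 0.0015) and MT-ND1 of complex I rose by 0.22 (SE 0.04, adjusted p = 0.00503), and the median of the 13 was -0.032. None of the 13 was called lower by edgeR, DESeq2 or limma on all 4 libraries at the settings used for the report, 2 were lower at an unadjusted p under 0.05 in edgeR, and 4 were called lower without hemin replicate 2.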

How the data were processed

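Poly(A) RNA of 2 untreated and 2 hemin-treated K562 libraries was analysed. The authors trimmed the reads with Trimmomatic 0.39 and quantified each library with RSEM 1.3.1 (with STAR 2.7.5c among the tools of the submitters' notes) on Ensembl 106, GRCh38. The deposited expected counts are estimated, unnormalized reads of each gene, in which RSEM splits a read that fits several genes. The deposited TPM values are scaled by effective length. The posterior SD, a deposited score on the scale of counts, describes that division, and gene lengths were deposited in bases. Effective length was below length by a median of 48.4 bases in the members, less than the mean fragment length stated in the methods would give. With the stated value the TPM of short genes, the members' levels and their sums included, would differ. The reason was not tested. The deposited FPKM tables were not used here. TPM in the sample files equalled that in the series tables for all 61498 genes.

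Expected counts were rounded and filtered with edgeR's filterByExpr, scaled by TMM and tested with the quasi-likelihood test of edgeR 4.0.16 in R 4.3.3, with 2 residual degrees of freedom per gene, a common dispersion of 0.001179 and Benjamini-Hochberg adjustment over 14458 genes at 0.05. The members and lists were chosen with earlier results of these data known, so no p-value over a list is given. The test was checked on simulated data. Intervals cover 95%. Named genes were every called member, the most abundant member of each complex, and a set list of catalytic, regulatory and isoform members. They also included the 3 tested members with the largest relative posterior SD and the called genes of the other lists. NDUFA6, NDUFA13, NDUFB2, NDUFB11, NDUFC1, COX6C and NDUFB6 were added after their values were seen. The regulators and markers that were not called were also added after their values were seen. Positions and overlaps came from GENCODE 44 on GRCh38, and promoters from RefSeq. The fits were repeated with RLE factors, with no composition factor, with DESeq2 1.42.0, other count filters, posterior mean counts, pseudogene counts added, a length correction, a replicate block, each library left out, the mitochondrial genome left out, and limma 3.58.1 on log2(TPM + 1) and log2(TPM + 0.1). A gene of the marker list is not reported here.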

Additional observations from a re-analysis of the deposited data

How the results depend on the processing

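Over 16 alternative settings, 635 of 702 combinations of a named gene and a setting kept their side of the threshold, 61 lost a call, 6 gained one and no called gene changed sign. In 37 combinations the sign differed where neither fit passed the threshold. Most named genes were not called at the settings used for the report, and so had no call to lose. Of the called members, NDUFB4 passed the threshold in 14 of the 16 settings, ATP5MC3 in 10, and NDUFS7 and NDUFA10 in 9 each. The number of members called lower, 3, was 1 with DESeq2, 5 with library size only or the strict filter of 20 counts, 6 with the length correction or posterior mean counts, and 0 with limma on either TPM scale; the number called higher, 1, was 0 with library size only, limma or the replicate block and 2 without a count filter. All genes called higher and lower were 602 and 484 with DESeq2 and 14 and 33 with limma on log2(TPM + 1). In complex I, 1 was called lower with DESeq2 and 0 with limma, and 1 was called higher without a filter. In complex II, 1 was called lower with the length correction, library size only, posterior mean counts or the strict filter. In complex IV, 1 was called lower with the length correction, posterior mean counts or no filter. In complex V, 0 were called higher with library size only, limma or the replicate block.

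The median of the members was -0.072 with library size only. The complex III median was -0.082 with library size only and -0.075 and -0.074 with limma, the complex V median -0.021 and -0.024, and the complex IV median -0.100 with pseudogene counts added. The cause of these differences was not tested. With each library left out in turn, the number of members called lower was 1 to 3 and higher 0 to 1, with a median of -0.050 to 0.010. Complex I had 1 to 2 lower calls, complexes II and IV 0 to 1, and complex V 0 to 1 higher calls. The medians ran from -0.053 to 0.022 in complex I, -0.081 to 0.008 in II, -0.053 to 0.013 in III, -0.114 to -0.026 in IV and -0.035 to 0.019 in V. In these fits the lone library of a condition took the spread of the other condition.

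The 2 replicate numbers are shared by both groups but are not stated to mark a shared culture, so they do not pair the libraries. With the replicate block, ATP5MC3 had an adjusted p of 0.0599 and the members called lower stayed at 3 in number, while all genes called higher and lower were 855 and 886. The summed TPM of each complex moved by less than the spread of replicates without the mitochondrial genome.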
